A study of Mus musculus with 8 samples.

Results

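A set of 8 genes of epithelial adhesion were followed in single cells of the pubertal mouse mammary gland, out of 14883 gene lines measured. They were taken by symbol and not by their values: the claudins Cldn3, Cldn4 and Cldn7, the epithelial cadherin Cdh1, Epcam, the membrane linker ezrin (Ezr), the junctional adhesion molecule F11r and the tetraspanin Cd9. Cells came from mammary ducts and terminal end buds that were micro-dissected at 5 weeks of age from mice of mixed strain, and live cells were sorted one per well. The labels name no genotype or treatment, and every library is of mammary epithelial cells by title. Messenger RNA was tagged and counted from its 3′ end with SORT-seq, which runs the CEL-seq2 chemistry by robot. There were 2 plates with 4 libraries each and 96 wells per library.

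The labels give each library a plate number and a library number only. The tissue part (duct or end bud), the animal and the gate of a library stay unnamed, so the library number was used as it stands: 4 libraries numbered 1 or 3 were compared with 4 libraries numbered 2 or 4. This split, like the genes, was proposed with earlier results of these data known. P-values rest on the spread between these libraries, which may be technical. In the model-based tests below, that spread is estimated partly from all genes tested together. A well counted as a cell with at least 1500 transcripts outside the spike-ins and at least 500 genes. Of 768 wells, 114 passed, 46 in libraries 1 and 3 and 68 in libraries 2 and 4, with 7 to 31 cells and 88301 to 586868 transcripts in each library and a median depth per cell of 4872 to 21255. All 96 well numbers occur in every library because they are plate positions.

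Claudins are the strand-forming proteins of tight junctions, which seal the space between epithelial cells near their apical side. E-cadherin, the product of Cdh1, holds neighbouring cells together in adherens junctions just below, and EpCAM is an epithelial surface protein that can associate with claudins. The mammary duct is a bilayer in which inner luminal cells line the lumen and carry these apical junctions, while outer basal cells are contractile and rest on the basement membrane.

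The libraries differed in cell type, and this touches every comparison between them. The 9 basal markers, among them Krt5 and Acta2, summed to 0.416 to 2.49 per 10000 transcripts in libraries 1 and 3 and to 27.4 to 160 in libraries 2 and 4; Krt5, Krt14 and Trp63 were at 0 in libraries 1 and 3. The 3 luminal keratins Krt8, Krt18 and Krt19 summed to 27.5 to 75.8 per 10000 in libraries 1 and 3 and to 0.340 to 2.87 in libraries 2 and 4. A difference between the library groups is thus also a difference between cells rich in luminal and in basal markers, and the 2 cannot be told apart. Cells led by markers outside the epithelium numbered 4 of 46 in libraries 1 and 3 (3 led by macrophage and 1 by red blood cell markers) and 11 of 68 in libraries 2 and 4. Of these 11, 9 were among the 12 cells of plate 1 library 2, 5 of them led by adipocyte markers. In summed cells, a lower share of a cell type and less RNA per cell cannot be told apart.

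The start-site regions of the claudin genes and of Epcam are shown because these 4 members had the largest ratios between the library groups reported below. They are RefSeq sequences of GRCm38.p6, from 250 bases before to 50 bases after a start of transcription, read 5′ to 3′ on the gene's strand. Capitals mark CAGGTG, or CACCTG where the match is on the other strand. This letter group is the E-box that the repressors Snail and Zeb are known to bind in the Cdh1 promoter; Cdh1 had no entry in the table used. Cldn3 lies at chr5:134985964-134986263 on the plus strand, Cldn4 at chr5:134946885-134947184 on the minus strand, Cldn7 has starts at chr11:69964529-69964828 and chr11:69965171-69965470 on the plus strand, and Epcam lies at chr17:87635729-87636028 on the plus strand.
Cldn3: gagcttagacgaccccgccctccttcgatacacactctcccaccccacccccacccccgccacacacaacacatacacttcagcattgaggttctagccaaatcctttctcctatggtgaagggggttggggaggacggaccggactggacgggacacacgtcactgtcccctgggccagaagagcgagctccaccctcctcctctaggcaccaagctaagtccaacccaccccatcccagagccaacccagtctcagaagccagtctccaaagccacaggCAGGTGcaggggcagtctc
Cldn4: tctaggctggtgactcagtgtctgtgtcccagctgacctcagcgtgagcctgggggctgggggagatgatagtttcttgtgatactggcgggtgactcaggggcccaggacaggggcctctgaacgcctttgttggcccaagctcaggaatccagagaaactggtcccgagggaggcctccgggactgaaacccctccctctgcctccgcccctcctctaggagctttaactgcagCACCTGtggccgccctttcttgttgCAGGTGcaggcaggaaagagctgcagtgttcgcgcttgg
Cldn7, first start: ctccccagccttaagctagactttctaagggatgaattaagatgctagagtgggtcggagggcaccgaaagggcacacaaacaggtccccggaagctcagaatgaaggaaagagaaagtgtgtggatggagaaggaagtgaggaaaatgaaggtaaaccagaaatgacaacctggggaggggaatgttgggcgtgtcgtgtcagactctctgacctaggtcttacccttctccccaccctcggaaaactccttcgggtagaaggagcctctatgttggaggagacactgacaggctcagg
Cldn7, second start: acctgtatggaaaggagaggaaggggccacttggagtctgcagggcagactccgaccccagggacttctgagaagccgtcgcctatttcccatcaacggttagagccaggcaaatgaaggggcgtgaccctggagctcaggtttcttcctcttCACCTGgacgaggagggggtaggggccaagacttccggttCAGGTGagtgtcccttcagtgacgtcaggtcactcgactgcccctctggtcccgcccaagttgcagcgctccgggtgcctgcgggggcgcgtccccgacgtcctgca
Epcam: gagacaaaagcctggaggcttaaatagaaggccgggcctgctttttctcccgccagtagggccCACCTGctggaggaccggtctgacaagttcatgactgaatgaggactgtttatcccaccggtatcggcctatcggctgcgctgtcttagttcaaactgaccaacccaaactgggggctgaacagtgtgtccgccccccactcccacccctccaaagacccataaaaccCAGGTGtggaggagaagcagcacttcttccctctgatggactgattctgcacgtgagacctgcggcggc

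The match in Cldn3 began 31 bases after the start site. Cldn4 held a match 14 bases before and another 11 bases after it. At the second start of Cldn7 the matches began 97 and 57 bases before the site, and at Epcam 187 and 19 bases before it, while the first start of Cldn7 had none. In all, 6 of the 8 member promoters in the table held CAGGTG on either strand, those of Cldn3, Cldn4, Epcam, F11r, Cd9 and 1 of the 2 of Cldn7, beside 20.2% of 32851 promoters of the same length. The letters GGGCGG, the core bound by Sp1 family factors, searched on both strands like every motif here, were in 7 of the 8 beside 35.7% of all, and TATAAA in 0 of 8 beside 13.6%. The Grainyhead motif AACNGGTT was in 0 of 8 beside 2.09%. These matches describe letters in a window and not binding, and CAGGTG and GGGCGG do not overlap one another. The share of G and C over all promoters had a median of 52.7% and an upper quartile of 61.7%. Every member window but the first start of Cldn7 lay above that median. Those of Ezr and the second start of Cldn7 lay above the upper quartile. The promoters were not matched for base composition, so whether the motif shares are particular to the members was not tested. Cldn4 and Cldn3 are neighbours on chromosome 5, 39279 bases apart with 0 annotated genes between them. On the same build the whole genes lie at chr5:134986214-134987476 (Cldn3), chr5:134945123-134946934 (Cldn4), chr11:69964779-69967886 (Cldn7), chr8:106603350-106670247 (Cdh1), chr17:87635979-87651127 (Epcam), chr17:6738131-6782780 (Ezr), chr1:171437561-171464593 (F11r) and chr6:125460266-125494760 (Cd9), all protein-coding.

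Transcripts of the 3 claudins were found in libraries 1 and 3 and were almost wholly missing from libraries 2 and 4. Cldn3 stood at 6.48, 2.47, 3.80 and 4.16 per 10000 transcripts in plate 1 libraries 1 and 3 and plate 2 libraries 1 and 3, and at 0 in all 4 of libraries 2 and 4. Cldn4 stood at 1.76, 2.52, 3.48 and 1.82 in the same order, and among libraries 2 and 4 it was at 0 in 3 and at 0.0170 in plate 2 library 2, which is 1 transcript. Cldn7 stood at 2.96, 1.78, 1.87 and 1.97 against 0 in all 4. The groups did not overlap for any of the 3. These levels are of summed cells, so deep cells weigh more. As a mean over cells Cldn4 stood at 1.10 in plate 1 library 3, and by that measure too no claudin had overlapping groups.

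Over the kept cells, 258 Cldn3 transcripts against 0 made this claudin at least 149-fold higher in libraries 1 and 3, taking 3 transcripts over the whole group as the floor. Cldn7, with 134 transcripts against 0, was at least 77.5-fold higher on the same floor. For Cldn4, with 158 transcripts against 1, the ratio was 274 with a 95% counting interval of 48.5 to 10894. Counting intervals and floors cover counting error only. All 3 passed edgeR's quasi-likelihood test with Benjamini-Hochberg adjustment over 3528 genes, at adjusted p of 3.27e-05 for Cldn3, 1.09e-05 for Cldn4 and 3.78e-05 for Cldn7.

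Cdh1 and Epcam were also higher in libraries 1 and 3 but were not missing from the others. Cdh1 was at 7.59, 4.51, 5.72 and 6.13 per 10000 in libraries 1 and 3, and at 0.453, 1.26, 0.682 and 0.711 in plate 1 libraries 2 and 4 and plate 2 libraries 2 and 4. Every library of the first group lay above every library of the second, and the mean of 5.99 ± 1.27 (SD, n = 4) was 7.73-fold that of 0.775 ± 0.340 (SD, n = 4). Epcam was at 9.26, 8.55, 10.4 and 9.72 against 0.340, 1.74, 0.937 and 1.08, so its level varied little among libraries 1 and 3. Its means were 9.48 ± 0.773 and 1.02 ± 0.574 (SD, n = 4 each), 9.26-fold apart. In the edgeR test the log2 changes were 2.97 ± 0.32 (SE, adjusted p = 5.33e-05) for Cdh1 and 3.20 ± 0.34 (SE, adjusted p = 5.02e-05) for Epcam.

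Ezrin links membrane proteins to actin at the apical surface. Ezr was at 5.83, 5.62, 8.09 and 8.37 per 10000 in libraries 1 and 3 and at 2.04, 1.26, 2.06 and 1.62 in libraries 2 and 4. The groups did not overlap and the means, 6.98 ± 1.45 and 1.74 ± 0.384 (SD, n = 4 each), were 4.00-fold apart, with a log2 change of 1.98 ± 0.27 (SE) and an edgeR adjusted p of 2.46e-04.

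The other two members moved less or not beyond the spread. F11r encodes JAM-A, an immunoglobulin-type protein of tight junctions, and stood at 1.94, 2.36, 2.86 and 2.39 per 10000 in libraries 1 and 3 and at 0.453, 1.45, 1.45 and 1.36 in libraries 2 and 4. The groups did not overlap, yet the log2 change of 0.96 ± 0.32 (SE) missed the threshold at an edgeR adjusted p of 0.0700. That call turned on settings: DESeq2 gave an adjusted p of 0.0337, and leaving out the cells led by other cell types gave 0.0468, in a range of 0.0337 to 0.481 over the alternatives. Cd9, which organises membrane protein clusters in many cell types, stood at 5.83, 7.82, 9.77 and 5.87 against 3.06, 6.86, 5.52 and 5.34. Its groups overlapped, since plate 1 library 4 lay above 2 of libraries 1 and 3, and the log2 change was 0.49 ± 0.27 (SE, edgeR adjusted p = 0.314). As a mean over cells, in which deep cells weigh no more than others, Cd9 in plate 1 library 4 was at 3.80. This lay below the lowest of libraries 1 and 3, at 4.92. The groups still overlapped by that measure, with plate 2 library 2 at 6.24.

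**Figure D1:**
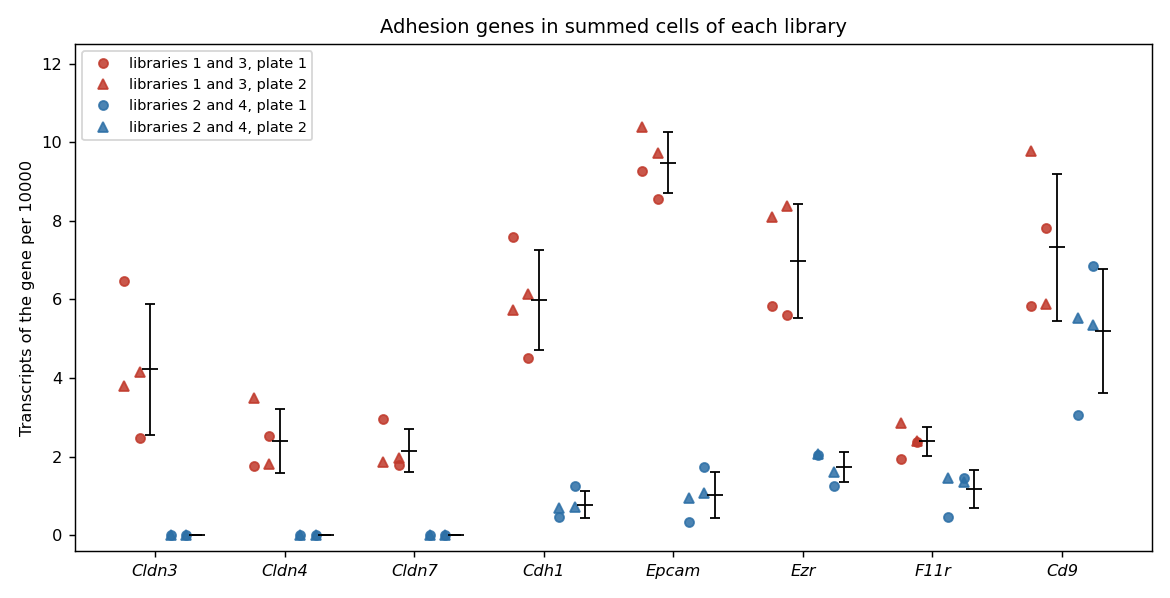
Level of each of the 8 genes in transcripts per 10000 (vertical axis, linear) in the summed kept cells of every library; circles are plate 1, triangles plate 2, and the bars give the mean ± SD of the 4 libraries. Cldn3, Cldn4 and Cldn7 lie at or next to 0 in libraries 2 and 4, and Cd9 is the gene of the 8 whose groups overlap.

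Of the 8 members 6 were called higher and 0 lower in libraries 1 and 3, where 5.78% of 3528 genes tested were called higher and 7.45% lower. Of the members 7 had groups without overlap, all higher in libraries 1 and 3. In that direction this held for 8.42% of the genes tested. Genes without overlap in the other direction were not counted. Each of the 7 had the smallest two-sided p that an exact permutation test of 4 against 4 libraries allows, 0.0286. Cd9 had p = 0.143 in that exact test. By size of the fitted change Epcam ranked 58, Cdh1 66, Ezr 121, F11r 344 and Cd9 762 of 3528. The 3 claudins are not ranked, since with 0 or 1 transcript in libraries 2 and 4 the size of their fitted change is not measured. They could pass the low-count filter only through libraries 1 and 3. In all 467 genes were called; leaving out plate 1 library 2 gave 852, and leaving out plate 1 library 1 gave 724. The 6 member calls stood with each single library left out in turn. On plate 1 alone, with 2 libraries a group, the calls were 3, those of the claudins. On plate 1 alone Cdh1, Epcam and Ezr had log2 changes of 2.80, 3.08 and 1.79.

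**Figure D2:**
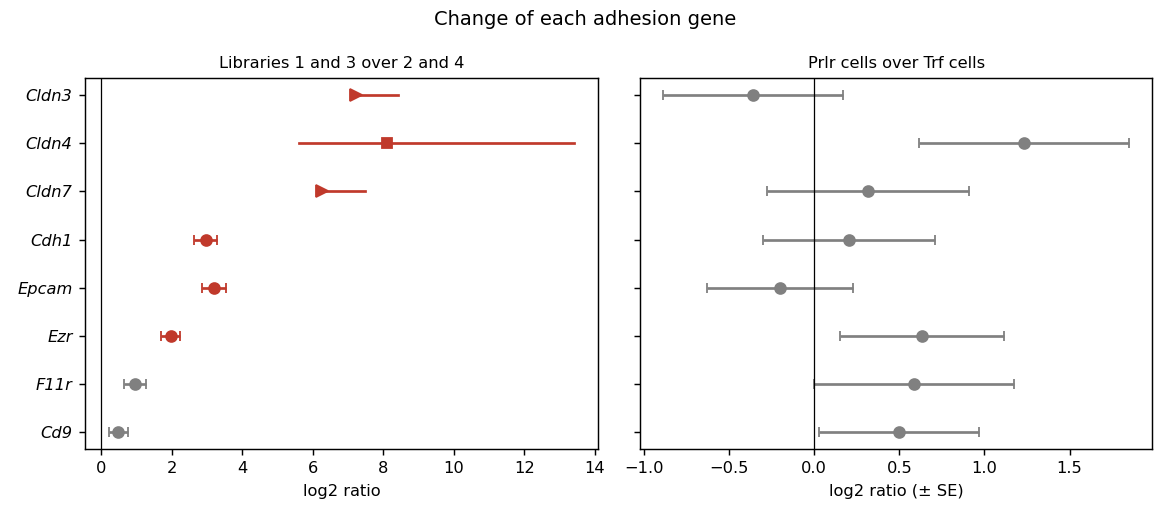
The log2 ratio of each gene (horizontal axes) for libraries 1 and 3 over 2 and 4 (left) and Prlr cells over Trf cells (right); circles are edgeR log2 changes with SE, arrows start at the lower bound for genes at 0 in libraries 2 and 4, and the square with a line is the Cldn4 count ratio with its 95% counting interval. Red marks an adjusted p under 0.05: 6 genes on the left and 0 on the right.

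Cell by cell, most cells of libraries 1 and 3 and 1 cell of libraries 2 and 4 held a claudin transcript. Cldn3 was seen in 36 of 46 cells of libraries 1 and 3 (78.3%, exact binomial 95% interval 63.6 to 89.1), Cldn4 in 25 (54.3%, 39.0 to 69.1) and Cldn7 in 28 (60.9%, 45.4 to 74.9). Of the 68 cells of libraries 2 and 4, 67 had no transcript of the 3, although their median depth of 13094.5 transcripts was above the 8142 of the first group. A count of 0 of 68 cells has an upper 95% bound of 5.28%. This bound and the intervals treat cells as independent, although cells of 1 library share their source. They therefore leave out the spread between libraries and describe the pooled cells only. By library, the share of cells with Cldn3 ran from 69.2% to 91.7% in libraries 1 and 3. The 1 exception, in plate 2 library 2, held a single Cldn4 transcript among 39827, beside 303 transcripts of basal markers and 31 of luminal keratins.

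In libraries 1 and 3, 21 of 46 cells held all 3 claudins, 9 held 2, 8 held 1 and 8 held none. Of the 8 without, 4 were the cells led by macrophage or red blood cell markers, and the other 4 had 1505 to 2855 transcripts. The 18 cells in which all 8 members were seen lay in libraries 1 and 3, against 0 in libraries 2 and 4, where the highest number in a cell was 6. A deeper cell can show more members, so these counts describe the cells at their own depths.

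Cdh1 and Epcam were widely but thinly present in libraries 2 and 4. Cdh1 was seen in 32 of 68 cells (47.1%, 34.8 to 59.6) and Epcam in 33 (48.5%, 36.2 to 61.0). These intervals also treat cells as independent and leave out the spread between libraries. By library, the share with Epcam ran from 16.7% to 61.1%. Of the 68 cells, 20 held both and 23 neither. Epcam was in 0 of the 11 cells led by other cell types, at a median depth of 3600, and in 33 of the other 57, at a median depth of 19118. Cdh1 was in 1 of those 11 and in 31 of the 57. In libraries 1 and 3, 40 cells held Cdh1 and 42 Epcam.

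With every cell thinned to 1500 transcripts, the share of cells with Epcam averaged 73.2% in libraries 1 and 3 and 12.6% in libraries 2 and 4, and with Cdh1 52.5% and 6.47%. A second random thinning gave 65.2% and 11.5% for Epcam, and 45.2% and 15.5% for Cdh1, so these shares move by several points with the draw. Cldn3 was left in 35.9%, Cldn4 in 25.9% and Cldn7 in 13.0% against 0 each, again without overlap. In the second draw they were left in 38.1%, 17.7% and 13.6% against 0 each, also without overlap. Ezr averaged 61.0% and 19.9% without overlap in the first draw, while in the second, at 43.9% and 15.5%, its libraries overlapped. F11r, at 19.4% and 15.1%, and Cd9, at 56.4% and 44.8%, overlapped, with exact permutation p of 0.371 and 0.343 (two-sided, n = 4 each).

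**Figure D3:**
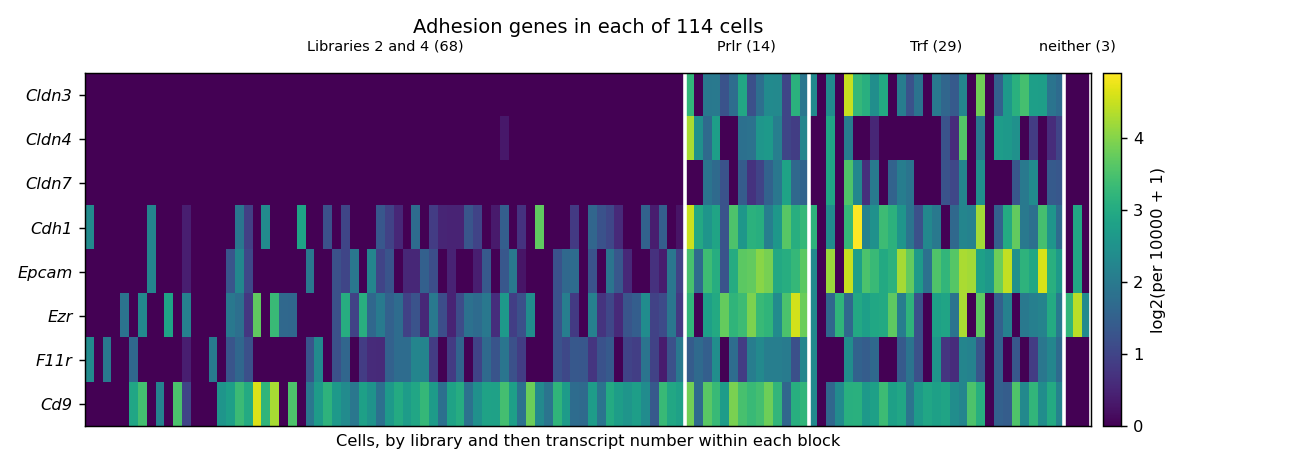
Each of the 114 cells is a column, ordered by library and then transcript number within 4 blocks, and the colour is log2(transcripts per 10000 + 1) of each gene. The 3 claudin lines are dark across the 68 cells of libraries 2 and 4, apart from 1 Cldn4 transcript, while Cd9 is lit in most cells of every block but that of the 3 cells in neither class.

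Luminal cells are usually divided into hormone-sensing cells, which carry the prolactin receptor Prlr, and secretory progenitors, which make transferrin (Trf). Libraries 1 and 3 were therefore split into 14 cells with more Prlr than Trf transcripts, called Prlr cells, and 29 with more Trf than Prlr, called Trf cells, with 3 in neither. Prlr cells were deeper, with a median of 17924 transcripts against 7397, and 3 of the Trf cells but 0 of the Prlr cells were led by markers of other cell types. Both transcripts were present in 27 cells, and in 2 of the classed cells the counts were less than 3 apart. Luminal keratins summed to 87.4 per 10000 in Prlr cells and 27.2 in Trf cells, macrophage markers to 0.178 and 2.87, and their part in the differences was not tested. Plate 1 library 1 had 1 Prlr cell and did not enter the test, which used plate 1 library 3 and plate 2 libraries 1 and 3, with the library as block. In that test edgeR's p-values rest almost wholly on a spread shared over genes, not on each gene's own spread between libraries.

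None of the 8 members passed the edgeR test between Prlr and Trf cells (0 of 8, where 13.5% of 1826 genes tested were called; 1 member, Cldn4, had an unadjusted p under 0.05). DESeq2 also called 0 of 8, and 0 of 8 were called without the cells led by other cell types. Cldn4 stood at 18.4, 4.19, 3.49 and 2.55 per 10000 in the Prlr cells of plate 1 libraries 1 and 3 and plate 2 libraries 1 and 3, and at 0.813, 0.367, 4.04 and 1.31 in their Trf cells. Prlr cells were above Trf cells in 3 of these 4 libraries, plate 2 library 1 being the exception with 3 Trf cells and 5 Cldn4 transcripts in them. The log2 change was 1.23 ± 0.62 (SE, unadjusted p = 0.0463, edgeR adjusted p = 0.211). It became 2.04 with an adjusted p of 0.0369 when sums of a single cell were allowed, which brings in the 1 Cldn4-rich Prlr cell of plate 1 library 1, and lay between 0.42 and 1.77 with each of the 3 libraries left out in turn.

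Cldn3 did not share this direction: it stood at 8.38, 2.80, 3.49 and 4.08 per 10000 in Prlr cells and at 6.60, 2.08, 8.08 and 4.21 in Trf cells, with a log2 change of -0.36 ± 0.53 (SE, edgeR adjusted p = 0.800). Transcript counts of Cldn4 exceeded those of Cldn3 in 7 of 14 Prlr cells and in 3 of 29 Trf cells, and Cldn3 exceeded Cldn4 in 6 and 19. These are counts of 3′ ends, not corrected for how well each gene is captured, and cells of 1 library share their source, so no test was made over cells. Cldn7 ranged from 0 to 2.55 over the 4 libraries' Prlr cells and from 1.10 to 3.25 over their Trf cells (log2 change 0.32 ± 0.59, SE). The groups overlapped for all 3 claudins.

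Cd9 was the member that lay higher in the Prlr cells of all 4 libraries, at 13.4, 9.69, 10.1 and 7.27 per 10000 against 5.59, 5.51, 7.27 and 4.91 in the Trf cells of the same libraries. The log2 change was 0.50 ± 0.47 (SE) and the edgeR adjusted p 0.632. Ezr, at 8.38, 6.15, 7.95 and 15.4 against 5.59, 4.65, 10.5 and 3.51, was higher in 3 of 4, and its highest value came from the 3 Prlr cells of plate 2 library 3 (log2 change 0.63 ± 0.48, SE, edgeR adjusted p = 0.510). Epcam hardly differed in value, at 7.92 to 10.5 in Prlr cells and 9.38 to 11.3 in Trf cells (log2 change -0.20 ± 0.43, SE). For F11r and Cdh1 the changes were 0.59 ± 0.59 and 0.21 ± 0.51 (SE). With standard errors of 0.43 to 0.62, changes of about that size were not detectable at this depth, and clearly larger ones could be missed too. Cldn4, at 1.23 ± 0.62 (SE), did not pass. With 3 pairs of libraries the smallest two-sided p of an exact sign-flip test is 0.25.

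**Figure D4:**
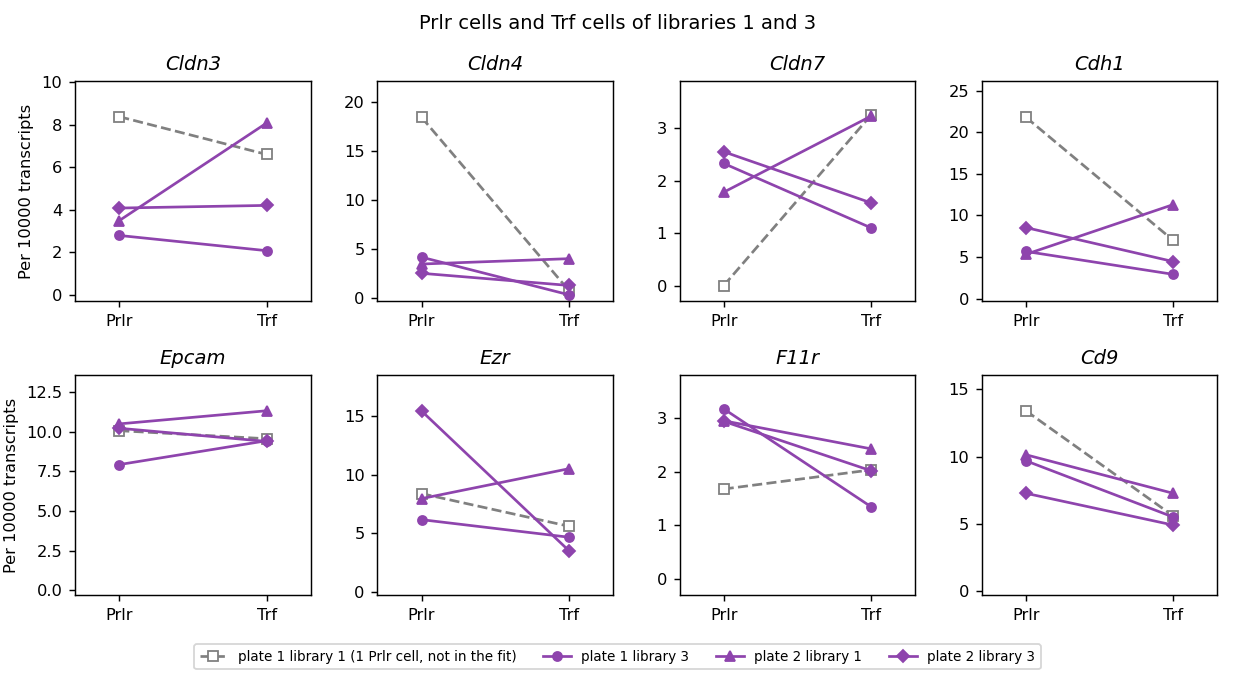
Level of each gene in transcripts per 10000 (vertical axes, linear, scaled per gene) in the Prlr and Trf cells of each of libraries 1 and 3, joined by library; the dashed grey line is plate 1 library 1, with 1 Prlr cell. Cd9 falls from Prlr to Trf cells in every library, whereas the lines of each other gene run in both directions, those of F11r only through plate 1 library 1.

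Between plates no member differed beyond the spread. With the library group in the fit, log2 changes of plate 2 over plate 1 ran from -0.32 for Cldn7 to 0.35 for F11r, and 0 of 8 members were called (0% of 3528 genes; 206 genes had an unadjusted p under 0.05). Nor was the difference between library groups shown to differ between plates: 0 of 8 members and 0% of genes passed edgeR's test of the interaction, with 192 genes at an unadjusted p under 0.05 and 3 called by DESeq2. The interaction for Cldn3 and Cldn7 could not be estimated because both were at 0 in all of libraries 2 and 4.

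The other claudins had counts in both directions, and few could be tested. Of 18 further claudins listed, 11 had a line in the table and 2 were frequent enough to test, of which 1 was higher and 0 lower in libraries 1 and 3 (median log2 change 3.04 over these 2). Cldn10, a claudin that forms ion channels, had 112 transcripts in libraries 1 and 3 and 1 in libraries 2 and 4, a ratio of 194 (95% counting interval 34.2 to 7742; edgeR adjusted p = 6.40e-05). It was also higher in Prlr than in Trf cells, at 2.70 and 0.685 per 10000 with a log2 change of 2.73 ± 0.73 (SE, edgeR adjusted p = 0.00233). That call was lost without any 1 of the 3 libraries, at adjusted p of 0.0578 to 0.182. It was also lost with no low-count filter (0.0540) and with sums of a single cell allowed (0.0513). Cldn25 had 50 and 172 transcripts, with a log2 change of -0.79 ± 0.44 (SE, edgeR adjusted p = 0.309). Some claudins too rare to test are named after their counts were seen. Cldn6 had 47 transcripts in libraries 1 and 3 against 1, Cldn8 34 against 0, Cldn1 15 against 4, Cldn2 10 against 0 and Cldn12 6 against 59. All 8 transcripts of Cldn5, an endothelial claudin, were in cells of libraries 2 and 4 led by other cell types.

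Among tight junction and polarity genes 10 of 28 were tested, and 3 were higher and 1 lower in libraries 1 and 3. The list's median log2 change was 0.11, beside -0.0069 over all genes tested, of which 5.78% were called higher and 7.45% lower. These shares stand beside the list counts below too. Those higher were Cgnl1 (paracingulin, 3.66 ± 0.55), Lsr (the tricellular junction protein angulin-1, 2.48 ± 0.56) and Cxadr (an adhesion protein and virus receptor, 1.92 ± 0.54), as log2 change ± SE. Amotl1, an angiomotin, was lower at -1.17 ± 0.34 (SE, edgeR adjusted p = 0.0402). The calls of Lsr, Cxadr and Amotl1 each ended without plate 2 library 4, at adjusted p of 0.0503, 0.107 and 0.117. Those of Cxadr and Amotl1 also ended without plate 2 library 2 (0.0958 and 0.0888) or plate 2 library 3 (0.0740 and 0.105), and that of Amotl1 without plate 1 library 4 (0.0810) or plate 2 library 1 (0.0799). Pard3 (-0.73 ± 0.36) and Mpp5 (-0.29 ± 0.36), polarity scaffolds, did not pass; Pard3 did without plate 1 library 2, at an adjusted p of 0.0287. Between Prlr and Trf cells 1 of 6 tested passed, beside 13.5% of all 1826 genes tested there. It was Lsr, higher in Prlr cells at 1.79 ± 0.66 (SE, edgeR adjusted p = 0.0497). That call was lost without any 1 library (0.0828 to 0.839), with DESeq2 (0.147), with no low-count filter (0.354) and with sums of a single cell allowed (0.106).

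Cdh2 and Cdh3, the other cadherins on the adherens junction list, were lower in libraries 1 and 3, where Cdh1 was higher. Of 21 adherens junction genes 11 were tested, and 2 were higher and 5 lower in libraries 1 and 3, with a median log2 change of -0.28. Cdh2 (N-cadherin) had 0 transcripts in libraries 1 and 3 and 126 in libraries 2 and 4, at least 24.2-fold lower on a floor of 3 transcripts over the group. Cdh3 (P-cadherin, a known basal cell cadherin) had 1 against 201, a ratio of 0.00863 (95% counting interval 2.17e-04 to 0.0486). Ajuba, a scaffold protein of adherens junctions, was lower at -2.65 ± 0.47 and Pvrl4 (nectin-4) higher at 3.08 ± 0.68 (log2 change ± SE), the latter not without plate 2 library 2 (edgeR adjusted p = 0.0635) or plate 2 library 4 (0.0510). The catenins that tie cadherins to actin did not pass, with Ctnnb1 at 0.28 ± 0.33 and Ctnna1 at -0.28 ± 0.32 (SE). In the comparison of Prlr with Trf cells 0 of 7 passed, 1 of them with an unadjusted p under 0.05.

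Desmosomal genes were lower in libraries 1 and 3 in 3 of 5 tested, of 10 listed, and higher in 0. These were Perp (-4.16 ± 0.63), Pkp4 (-1.92 ± 0.36) and Dsp (desmoplakin, -1.61 ± 0.36), and the list's median log2 change was -1.61. The calls of all 3 ended on plate 1 alone, at adjusted p of 0.119, 0.251 and 0.347. Dsg2 (0.92 ± 0.41) and Pkp3 (-0.75 ± 0.37) did not pass, and neither of 2 genes tested passed between Prlr and Trf cells.

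In the ezrin family and apical membrane list 3 of 8 tested genes, of 15, were higher in libraries 1 and 3 and 0 lower, with a median log2 change of 0.68. The recycling-endosome genes Rab25 (3.79 ± 0.61) and Rab11fip1 (2.36 ± 0.37) were among them. Podxl, a sialomucin that binds the ezrin complex, was the third at 4.03 ± 1.08 (SE, edgeR adjusted p = 0.0247), but not by DESeq2 (0.199) and not without plate 1 library 4, plate 2 library 1, plate 2 library 2, plate 2 library 3 or plate 2 library 4 (0.0568 to 0.123). The ezrin relative Rdx, radixin, stood at -0.49 ± 0.37 and Slc9a3r2, an ezrin-binding scaffold, at 0.53 ± 0.46. Between Prlr and Trf cells Prom1 (3.96 ± 0.93) and Podxl (2.60 ± 0.71) were higher in Prlr cells and the epithelial transcription factor Ehf lower (-2.65 ± 0.64), as log2 change ± SE. Each of these was lost without at least 1 of the 3 libraries: Prom1 without plate 2 library 3 (adjusted p = 0.252), Podxl without plate 1 library 3 (0.128) or plate 2 library 3 (0.325), and Ehf without plate 1 library 3 (0.242) or plate 2 library 1 (0.139). The call of Podxl was also lost with no low-count filter (edgeR adjusted p = 0.0550).

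Tetraspanins and known partners of EpCAM were higher in 6 of 12 tested, of 18, and lower in 0, with a median log2 change of 1.52. The tetraspanin Cd82 rose by 4.28 ± 0.48 on the log2 scale, the protease St14 (matriptase) by 2.29 ± 0.47 and its inhibitor Spint1 by 2.30 ± 0.50 (SE). Tspan3 (-0.80 ± 0.26, edgeR adjusted p = 0.0631) and Cd81 (0.95 ± 0.51, 0.284) did not pass. Each did pass without plate 2 library 1 (0.0357 and 0.0454), and Tspan3 did without plate 1 library 2 (0.0495). Tspan3 also passed with DESeq2 (0.0423) and with wells of at least 3000 transcripts (0.0459), and Cd81 with cells led by other cell types left out (log2 change 1.55, adjusted p = 0.0474).

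In the split by Prlr and Trf 2 of 12 tetraspanin and partner genes were higher and 2 lower in Prlr cells. Tspan1 was at 3.61 per 10000 in Prlr and 0.0652 in Trf cells, 122 and 2 transcripts, and Tspan13 at 5.69 and 0.522 (log2 change 3.22 ± 0.66, SE). Tspan8 had 0 transcripts in Prlr cells and 65 in Trf cells. Cd81, which shares binding partners with Cd9, was at 1.01 in Prlr and 8.48 in Trf cells, a log2 change of -2.95 ± 0.57 (SE, edgeR adjusted p = 5.32e-06), which was lost without plate 1 library 3 (0.0718) or plate 2 library 1 (0.0517). Cd9 itself had values in the other direction and did not pass.

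Transcription factors known to maintain or repress epithelial genes gave 1 higher and 0 lower of 4 tested, of 18 listed, with a median log2 change of 0.57. This was Elf3, an epithelial ETS factor, at 4.40 ± 0.52 (log2 change ± SE), while Klf4 (-1.24 ± 0.44) and the splicing regulator Esrp1 (0.87 ± 0.35) did not pass; Klf4 did without plate 1 library 4 (edgeR adjusted p = 0.0490) and with no low-count filter (0.0363). The listed repressors of the Snail, Zeb and Twist families were not among the genes tested in either comparison, so these counts do not cover them. Between Prlr and Trf cells Elf5, the alveolar lineage factor, was lower in Prlr cells at 0.0889 against 4.34 per 10000 (log2 change -5.54 ± 0.81, SE), as was Ehf, and 0 of 5 were higher. Over the genes tested between Prlr and Trf cells the median log2 change was 0.16 for tight junction, 0.14 for adherens junction, 0.22 for desmosome, 0.43 for ezrin family, 0.63 for tetraspanin and -1.24 for transcription factor genes, beside 0.11 over all genes tested. Ehf, a transcription factor, stood on both the ezrin family and the transcription factor list and enters the counts and medians of both. Of the called list genes named above for the library groups, Cldn10, Lsr, Cxadr, Amotl1, Rab11fip1 and St14 were also no longer called on plate 1 alone (adjusted p from 0.0752 for Cldn10 to 0.722 for Amotl1).

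**Figure D5:**
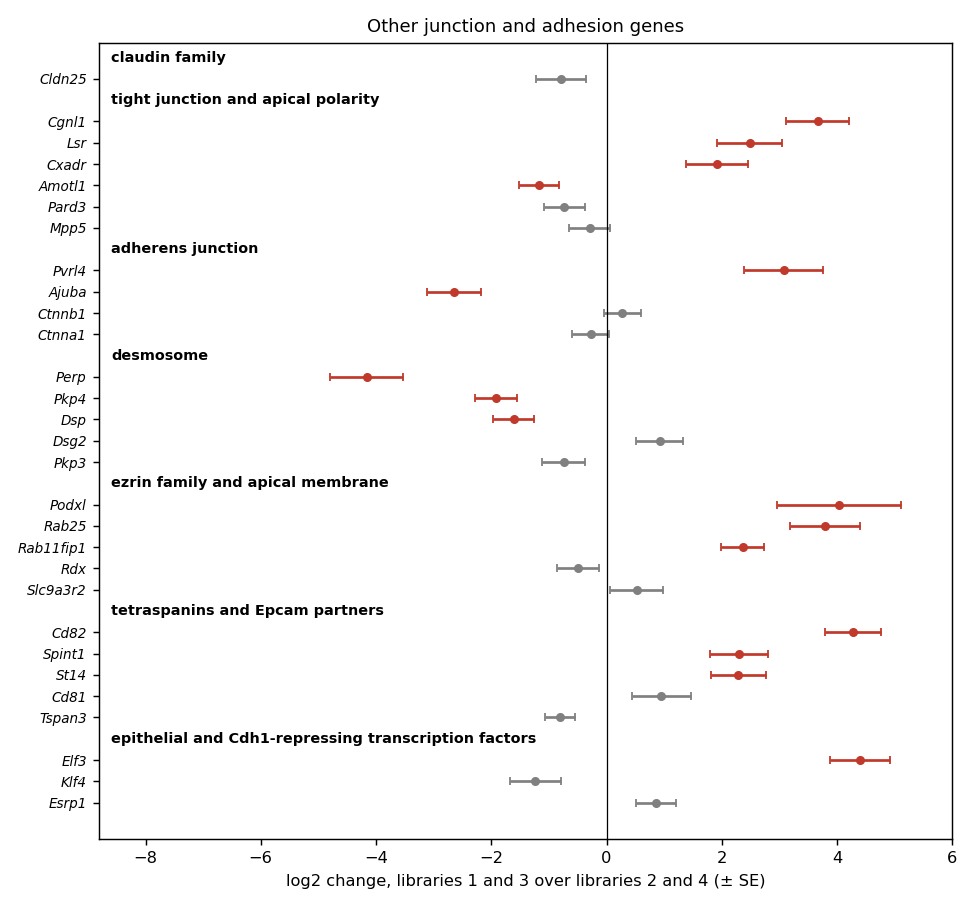
The edgeR log2 change (horizontal axis, ± SE) of the named genes of each list in libraries 1 and 3 over 2 and 4; red marks an adjusted p under 0.05, and genes with 3 or fewer transcripts in a group, given in the text as ratios or bounds, are left out. The 3 called desmosomal genes lie left of 0, and those of the ezrin, tetraspanin and transcription factor lists lie right of it.

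The genes whose levels ran most alike to each member were found by Pearson's r of log2(per 10000 + 1) over 12 sums, those of 4 libraries 2 and 4 and of the Prlr and the Trf cells of 4 libraries 1 and 3. These sums share libraries and depth and fall into the 2 library groups, so r is a description of that pattern. The Prlr sum of plate 1 library 1 is 1 cell of 5968 transcripts, with Cldn4 at 18.4, Cdh1 at 21.8 and Cd9 at 13.4 per 10000. Its weight in r was not tested. For Cldn3 they were Shisa5 (0.96), Cdh1 (0.96) and Me1 (0.93), and those of Cdh1 included C920025E04Rik (0.97) and Cldn3 (0.96). Epcam ran with Krt18 (0.95), Cldn3 (0.93) and Shisa5 (0.92), and Ezr with Krt18 (0.90), H3f3b (0.89) and Cdh1 (0.87). Cldn4 had none of the members among its 3, which were Ets2 (0.93), Tead2 (0.93) and Rpl36al (0.92). Those of Cldn7 included Eci1 (0.91) and Pnpla2 (0.91). For F11r the 3 were Krt8 (0.91), Slirp (0.88) and Gata3 (0.86), and for Cd9 they were 2010107E04Rik (0.92), Plekhg3 (0.89) and Aff4 (0.88).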

How the data were processed

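Transcripts were counted per gene in each of 96 wells of 8 libraries. The submitters' processing notes name BWA 0.6.2-r126 and the mouse genome mm10; further steps are named by no source used here. The deposited values are estimated counts: from the values, 518732 of 518737 above 0 lie, within a tolerance of 1e-06, on the scale of a correction for collisions among tags of 4 bases (a pool of 256), per gene and well, which no label states. Values were rounded in each well before they were summed over cells. Spike-in lines (81) were left out, and 4 gene lines with a repeated symbol were kept by full name.

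The genes, gene lists, library split and class rule were chosen with earlier results of these data known. Cells were wells of at least 1500 transcripts and 500 genes; their counts were summed per library, or per library and class with at least 3 cells, and tested with edgeR 4.0.16 in R 4.3.3 (quasi-likelihood, TMM, low-count filter, Benjamini-Hochberg adjustment over all genes tested, threshold 0.05), a step tested on simulated data. DESeq2 1.42.0 was an alternative. Levels are transcripts of the gene per 10000 of all non-spike-in transcripts; SD is over libraries. All 8 members are named, and from each list up to 4 passing genes of largest change and up to 2 others of highest level; some genes that this rule names are not reported here. Alternatives were other scaling, no filter, other well thresholds, the collision correction undone, plate or library as block, each library left out and each plate alone. Leaving out cells led by other cell types from the comparison of Prlr and Trf cells was chosen after seeing the data. Promoters are RefSeq's of GRCm38.p6 and matched 7 of the 8 members. Depth is 7 to 31 cells a library.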

Additional observations from a re-analysis of the deposited data

Results flagged for a closer look

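In all, 7 groups of libraries had 1 library apart from the rest by Dixon's criterion, of 30 groups tested, and chance gives about 1 in 20. Cldn4 in libraries 2 and 4 was at 0.0170 per 10000 in plate 2 library 2, its single transcript, and at 0 in the others. In Prlr cells Cldn4 was at 18.4 per 10000 in plate 1 library 1, which is 1 cell with 11 Cldn4 transcripts among 5968; F11r was at 1.68 in the same cell, below the other libraries. Cldn7 was highest in plate 1 library 1, at 2.96 per 10000, among libraries 1 and 3. Epcam stood apart at 7.92 per 10000 in the Prlr cells of plate 1 library 3 and at 11.3 in the Trf cells of plate 2 library 1. F11r was lowest among libraries 2 and 4 in plate 1 library 2, at 0.453 per 10000, where 9 of 12 cells were led by markers of other cell types.

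Wells under 500 transcripts, left out of the comparisons, also held adhesion transcripts. The 294 such wells of libraries 1 and 3 held 40 transcripts of Cdh1, 12 of Epcam, 24 of Ezr, 17 of Cd9 and 6 each of Cldn4, Cldn7 and F11r. For Cdh1 this came to 9.98 per 10000, in 39 wells, above the 5.80 in the kept cells of these libraries, whereas Epcam was at 2.99 against 9.47. The 285 such wells of libraries 2 and 4 held 7 transcripts of Cdh1, 6 of Ezr, 5 of F11r and 11 of Cd9, and 0 of the 3 claudins. Wells of 500 or more transcripts that were not kept had Cdh1 at 2.40 per 10000 in libraries 1 and 3, below the kept cells. Those of libraries 2 and 4 held 1 Cldn3 transcript.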

How the results depend on the processing

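The directions of the 8 members between library groups held under every alternative run, and the calls of the 3 claudins with them. Between library groups 467 genes were called, against 1299 with no low-count filter, 90 on plate 1 alone, 981 on plate 2 alone and 399 to 852 with 1 library left out; those called higher were 204, against 588, 35, 444 and 164 to 418. Members called fell from 6 to 3 on plate 1 alone, where Cdh1 (2.80), Epcam (3.08) and Ezr (1.79) missed the threshold at adjusted p of 0.0628, 0.0675 and 0.119. F11r passed with DESeq2 (0.96), with wells of 500 transcripts (0.98) and without cells led by other types (0.99). With plate as a replicate block 464 genes were called; libraries of different groups on the same plate had correlations of deviations of -0.0051 to 0.065, all under 0.1. DESeq2 called 3 genes in the interaction, and between plates 0 to 1 were called with a library left out. Between Prlr and Trf cells 246 genes were called and 120 to 158 with 1 library left out (109 and 53 to 62 higher), 1 member, Cldn4 (2.04), with single cells allowed, and sums of at least 5 cells left no library to test. None of the following sign changes was in a call. Between library groups Mpp5 ranged from -0.50 to 0.00060 and Ctnnb1 from -0.048 to 0.48 with 1 library left out, Mpp5 turned to 0.25 on plate 1 alone, Ctnnb1 to -0.11 on plate 2 alone, Ctnna1 to 0.27 on plate 2 alone and Slc9a3r2 to -0.21 on plate 1 alone. Between Prlr and Trf cells with 1 library left out Cdh1 ranged from -0.014 to 0.73, Epcam from -0.28 to 0.0059, Cxadr from -0.014 to 0.53, Ctnnd1 from -0.27 to 0.29, Dsg2 from -0.74 to 0.14, Rab25 from -0.20 to 0.57, Spint2 from -0.016 to 0.12, Klf4 from -2.65 to 0.15 and Elf3 from -0.33 to 1.58. Epcam turned without scaling factors (0.0055) and without the filter (0.0077), Ctnnd1 in both (0.12, 0.082), with single cells (0.38) and with wells of 500 transcripts (0.080), Rab25 and Spint2 without the replicate block (-0.26, -0.0029) and Spint2 with the collision correction undone (-0.014). Between plates, with 1 library left out, signs also turned: Cldn3 ranged from -0.74 to 0.64, Cldn4 from -0.22 to 0.65, Cldn7 from -0.66 to 0.066, Cdh1 from -0.38 to 0.082, Epcam from -0.16 to 0.43 and Cd9 from -0.042 to 0.37. The cause of these changes was not tested, beyond fewer libraries or other genes entering each fit.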
